A study of Mus musculus with 12 samples.

Results

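The PML nuclear body proteins described here are the scaffold PML, the histone chaperone DAXX and the speckled proteins SP100, SP110 and SP140. These 5 genes were taken by symbol, with no threshold on a measured value, from the 23636 symbols of an RNA-seq table of CT26 cells, a mouse colon carcinoma line. All 5 were among the 11878 genes that passed the filter on low values and were tested. The study asked what CX3CL1 (fractalkine, the ligand of the receptor CX3CR1) does to the tumor cell itself. The cells were left without treatment or were given CX3CL1 at 2 µg/ml, IFN-γ at 100 ng/ml, or both agents (IFN-γ + CX3CL1). The study's results text names TNF-α beside IFN-γ, given before CX3CL1, while its figure legend and the sample labels name IFN-γ only. Treatment lasted 8 hours, with 3 libraries labelled as biological replicates in each of the 4 groups. The groups share 1 cell line and carry no genetic change. Whether the replicates came from separate cultures is not given in the sources used here, so p-values measure the spread between these libraries, which may in part be technical.

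PML nuclear bodies are round assemblies in the cell nucleus. PML, a RING-finger protein modified by the small ubiquitin-like protein SUMO, forms their shell, and partners such as SP100 and DAXX bind there through SUMO. DAXX is a co-repressor that, with ATRX, places the histone variant H3.3 in silent chromatin. SP100, SP110 and SP140 share a SAND DNA-binding domain, and they act as chromatin readers and repressors. SP110 and SP140 are best known from leukocytes, and these bodies are counted among the nuclear defences of interferon-treated cells against DNA viruses.

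SP110, SP140 and SP100 are neighbours in the mouse genome (build GRCm38, the same as mm10). SP110 lies on the minus strand at chr1:85576899-85598817, SP140 on the plus strand at chr1:85600378-85645037, and SP100 on the plus strand at chr1:85649988-85709998. By these ends, taken from GENCODE, SP110 and SP140 face away from each other with 1561 bp between their 5′ ends. SP100 starts 4951 bp after the end of SP140, so that the 3 genes fill 133.1 kb. RefSeq also gives a start of SP110 whose promoter window, chr1:85603842-85604141 on the minus strand, lies inside SP140. From that start, SP110 and SP140 overlap. PML is at chr9:58218076-58249786 on the minus strand, and DAXX, the shortest gene of the group with 6.2 kb, is at chr17:33909414-33915590 on the plus strand.

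**Figure D1:**
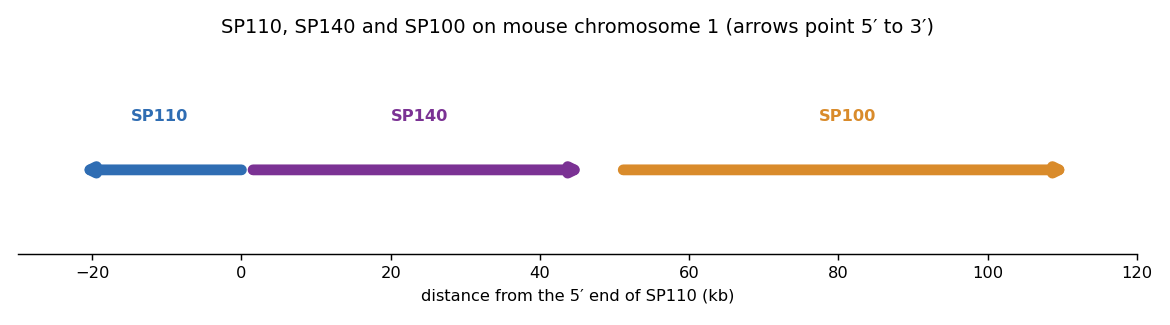
Map of the SP110, SP140 and SP100 genes on mouse chromosome 1, drawn to scale as distance in kb from the 5′ end of SP110; arrows give the strand. By their GENCODE ends, SP110 and SP140 point away from each other with 1561 bp between their 5′ ends. SP100 follows SP140 on the same strand after 4951 bp. A further RefSeq start of SP110, inside SP140, is not drawn.

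The promoters of SP100 and SP110 are shown because these were the members with the highest fold changes with IFN-γ and the only members called with CX3CL1 alone, and because both hold almost the same run of letters. The windows are from RefSeq (build GRCm38.p6), in the direction of the gene. Capitals mark the 18-base run, which ends 32 bases before the SP100 start and begins 7 bases into the SP110 transcript. SP100 is chr1:85649933-85649962 on the plus strand and SP110 is chr1:85598780-85598809 on the minus strand:
SP100: agaattACTTTCGTTTTTCTTTTCcccatc
SP110: gagatcACTTTCATTTTTCTTTTCttgaag
The run differs between the genes by 1 substitution, G7A, with the SP100 base first and positions counted from 1 at the 5′ end of the run. The run was picked as the longest stretch that windows of SP100 and SP110 share with at most 1 difference. Among 32817 promoter windows of 300 bases, 4 windows held the run with any base at position 7, on either strand. They belong to 3 genes, Sp100, Sp110 and Gm7609, a relative of SP100. Because of how the run was picked, its rarity among the windows is no test. The 250 bases before the SP100 start, chr1:85649738-85649987 on the plus strand, show where the run lies:
SP100 upstream: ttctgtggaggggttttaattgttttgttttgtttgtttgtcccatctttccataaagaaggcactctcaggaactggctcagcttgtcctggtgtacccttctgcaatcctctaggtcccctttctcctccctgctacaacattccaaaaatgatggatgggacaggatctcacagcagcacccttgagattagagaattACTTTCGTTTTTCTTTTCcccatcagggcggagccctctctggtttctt

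Windows of 300 bases, from 250 before to 50 after an annotated start, were given for all 5 members, 9 windows in all. The GAS pattern TTCNNNGAA, the element known as the gamma-activated site, was in 0 of these 9 windows on either strand, against 8.29% of all windows. The ISRE pattern, searched as GAAA, 2 free bases and GAAA and known for ISGF3 and IRF factors, was likewise in 0 of 9 on either strand, against 3.43% of all windows. A looser pair, GAAA, 3 free bases and GAAA, was searched after the windows had been read. It lies inside the run shown above, on the strand opposite to the gene, was in 3 of the 9 windows, both of SP100 and 1 of the 2 of SP110, and was in 2.75% of all windows. A match is a description of letters, and the absence of a match says only that these letters are not in these windows.

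Expression is given as TPM, a transcript level scaled for gene length and library total, so that levels may be compared between genes. The files give TPM without counts, and the read depth behind each value is therefore unknown. Each library summed to 1000000 TPM, 10613 to 10824 symbols per library reached 1 TPM, and the replicates of a group correlated at 0.994 to 0.998 across all symbols. IRF1, a transcription factor induced by IFN-γ, was at 19.6 TPM without treatment and 107 TPM with IFN-γ on average, a difference of 2.31 on the log2 scale (limma, adjusted p = 0.000152). NFKBIA, a target of NF-κB, was at 16.8 TPM without treatment and 85.3 TPM with CX3CL1 on average, a difference of 2.25 on the log2 scale (limma, adjusted p = 0.00131). With IFN-γ alone NFKBIA was at 72.3 TPM on average (log2 fold change 2.05, limma adjusted p = 0.00071), so its rise was not particular to CX3CL1. Of 5 leukocyte markers, 0 reached 1 TPM in any library, and their summed level stayed at or below 0.156 TPM. Of 5 epithelial markers 1 (KRT18) reached 1 TPM, and EPCAM was listed at 0 in every library. KRT18 fell with IFN-γ (log2 fold change -0.68, limma adjusted p = 0.0346) and with IFN-γ + CX3CL1 (-1.02, limma adjusted p = 0.00171). Of 4 fibroblast markers 3 reached 1 TPM (PDGFRA, COL1A1 and COL3A1), and their summed level ran from 70.5 to 97.5 TPM without treatment and from 31.3 to 48.6 TPM with IFN-γ + CX3CL1. In that comparison COL1A1 (-1.24, limma adjusted p = 0.00139) and COL3A1 (-2.12, limma adjusted p = 2.69e-05) fell, and COL3A1 also fell with IFN-γ alone (-1.61, limma adjusted p = 0.000391). PDGFRA was not called against no treatment, with an estimate of 0.64 for IFN-γ + CX3CL1 (limma adjusted p = 0.213). The part of these markers in the results below was not tested. In bulk RNA, more cells with a transcript and more transcript per cell cannot be told apart. In the treated groups replicate 3 stood above replicates 1 and 2 for several members, and results that rest on it are also given without it.

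Without treatment the transcripts of all 5 members were present in each library, and that of PML was the highest on average. PML was at 37.6, 34.3 and 34.0 TPM in replicates 1, 2 and 3. SP100 was at 35.2, 25.2 and 35.3 TPM. DAXX was at 25.7, 25.9 and 25.6 TPM, the narrowest spread of the group. The transcripts of these 3 classical body components thus lay within a narrow band, and the order of PML and SP100 differed between libraries. SP140 was at 26.5, 19.1 and 22.9 TPM, and its range overlapped those of SP100 and DAXX. SP110 was lowest in each library with 10.9, 5.70 and 8.52 TPM. Of the genes tested, 62.7% had a lower untreated mean than PML, and 28.9% had a lower one than SP110.

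**Figure D2:**
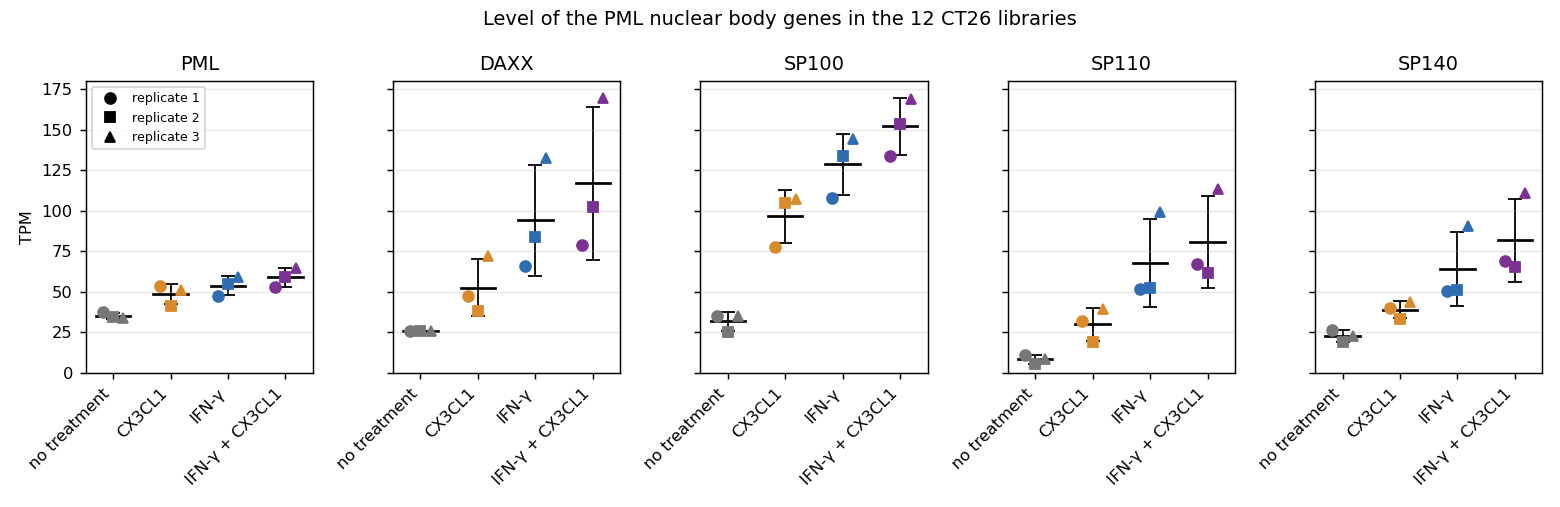
Level of each member in TPM in each of the 12 libraries, with points for single libraries, horizontal lines for group means and whiskers for SD (n = 3). For all 5 members the untreated points lie below all points of the other groups, and the group means ascend from no treatment through CX3CL1 and IFN-γ to IFN-γ + CX3CL1.

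IFN-γ raised all 5 members. The test called 5 of 5 higher than in untreated cells, against 5.91% of all tested genes called higher, and for 5 of 5 the 2 groups did not overlap, which held in this direction for 20.6% of tested genes. The scale of the rise differed widely, from 1.53 times the untreated mean for PML to 8.11 times for SP110. The median log2 fold change of the members was 1.77, and that of all tested genes was 0.0315.

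PML, the scaffold, was at 47.7, 54.9 and 59.0 TPM in the IFN-γ libraries. All 3 libraries lay above the highest untreated library. The log2 fold change was 0.59 (SE 0.12, 95% interval 0.33 to 0.85, limma adjusted p = 0.0081). Among the tested genes this was rank 612, the lowest rank of the 5 members. Without replicate 3 of both groups with IFN-γ the change in PML was 0.52 on the log2 scale (adjusted p = 0.0642), and without replicate 3 of all groups 0.50 (adjusted p = 0.311), so the call was lost while the estimate moved little. It held without IFN-γ replicate 3 alone (0.52, adjusted p = 0.0498), and other pairs or sets of libraries were not left out together. For the other 4 members the call held in all 22 alternative fits.

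DAXX, the H3.3 chaperone, was at 65.8, 84.0 and 132 TPM with IFN-γ. The ratios to the untreated library of the same number were 2.57, 3.24 and 5.17 for replicates 1, 2 and 3. The log2 fold change was 1.77 (SE 0.30, 95% interval 1.13 to 2.41, limma adjusted p = 0.00206). The spread of DAXX between replicates was 34.4 TPM (SD, n = 3) with IFN-γ, against 0.167 TPM without treatment.

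SP100 was at 108, 134 and 144 TPM with IFN-γ, the highest level of the 5 members in each of these libraries. The log2 fold change of 1.98 (SE 0.17, 95% interval 1.62 to 2.35) had an adjusted p of 8.22e-06 by limma, the smallest among the members. SP110, a SAND domain protein, was at 51.9, 52.5 and 99.4 TPM. The ratio of each library to the untreated library of the same number was 4.76, 9.21 and 11.7, and the log2 fold change was 2.85 (SE 0.33, 95% interval 2.14 to 3.56, limma adjusted p = 9.19e-05), rank 70 among the tested genes. SP140, its neighbour in the genome, was at 50.5, 51.3 and 90.7 TPM. Its log2 fold change was 1.41 (SE 0.24, 95% interval 0.89 to 1.93, limma adjusted p = 0.00238). The 2 neighbours overlapped in TPM with IFN-γ, whereas without treatment each SP140 library lay above each SP110 library.

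**Figure D3:**
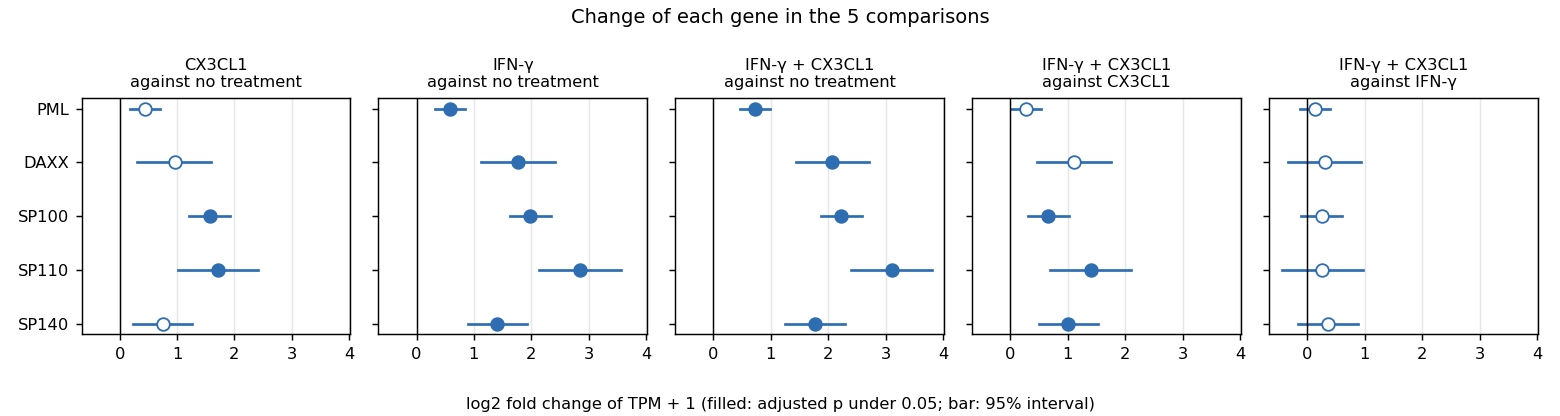
Log2 fold change of each member in each comparison of log2(TPM + 1), with points for the limma estimate, filled where the adjusted p was under 0.05, and bars for its 95% interval. All 5 intervals lie above 0 for IFN-γ against no treatment, and all 5 span 0 for IFN-γ + CX3CL1 against IFN-γ.

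CX3CL1 without IFN-γ raised SP100 and SP110. The test called 2 of 5 members higher than in untreated cells, against 1.78% of all tested genes. With the replicate number as a block it called 4 of 5, against 2.92% of tested genes called higher. For 5 of 5 members the lowest CX3CL1 library lay above the highest untreated library, which held for 5.50% of tested genes, and all 5 had an unadjusted p under 0.05, as did 8.07% of tested genes in either direction. The median log2 fold change of the members was 0.96, and that of all tested genes was -0.0165. This comparison and the one of IFN-γ share the 3 untreated libraries, so the values stand side by side and no relation between them is drawn.

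SP100 was at 77.5, 105 and 108 TPM with CX3CL1, against 25.2 to 35.3 TPM without treatment. The group mean of 96.5 TPM was 3.03 times the untreated mean, and the log2 fold change was 1.57 (SE 0.17, 95% interval 1.21 to 1.93, limma adjusted p = 0.000271). This call held in all 22 alternative fits. SP110 was at 32.1, 19.1 and 39.2 TPM, and its lowest library lay above the highest untreated one, at 10.9 TPM. Its log2 fold change was 1.71 (SE 0.33, 95% interval 1.01 to 2.42, limma adjusted p = 0.013), rank 54 among the tested genes. With the replicate number as a block the limma adjusted p of SP110 was 0.000579, and the fits that follow have no block. The call on SP110 was lost without untreated replicate 2 (adjusted p = 0.0757) or 3 (adjusted p = 0.0559), without CX3CL1 replicate 1 (adjusted p = 0.0591) or 3 (adjusted p = 0.0752), without replicate 3 of all groups (adjusted p = 0.0819), and with no filter on low values (adjusted p = 0.0616), while its log2 fold change stayed between 1.49 and 1.74 in those fits.

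The 3 members that were not called with CX3CL1 had smaller estimates. PML was at 53.4, 41.5 and 51.3 TPM, with a log2 fold change of 0.45 (SE 0.12, 95% interval 0.19 to 0.71, limma adjusted p = 0.103). Without CX3CL1 replicate 2 the estimate for PML was 0.56 and passed the test (adjusted p = 0.0226). DAXX was at 47.5, 38.4 and 72.1 TPM, with a log2 fold change of 0.96 (SE 0.30, 95% interval 0.31 to 1.60, limma adjusted p = 0.194). SP140 was at 40.1, 33.2 and 44.0 TPM, with a log2 fold change of 0.75 (SE 0.24, 95% interval 0.23 to 1.27, limma adjusted p = 0.218). In the fit without replicate 3 of both groups with IFN-γ, DAXX (adjusted p = 0.0392) and SP140 (adjusted p = 0.0169) passed as well. By limma with the replicate block, DAXX (adjusted p = 0.0192) and SP140 (adjusted p = 0.0292) passed too, and PML did not (adjusted p = 0.0592). Each of these 3 had its CX3CL1 libraries wholly above its untreated ones, and the failure to pass does not show that their levels stayed the same.

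The group means of all 5 members stood in the same order, with no treatment below CX3CL1, CX3CL1 below IFN-γ, and IFN-γ below IFN-γ + CX3CL1. How many of all tested genes share this order was not counted. The neighbours in that order did not all separate. No treatment and CX3CL1 did not overlap for any member. CX3CL1 and IFN-γ did not overlap for SP100, SP110 and SP140, 3 of 5 members, where 18.3% of tested genes had their IFN-γ libraries wholly above those with CX3CL1. PML and DAXX overlapped between these treatments, with PML at 41.5 to 53.4 TPM in CX3CL1 and 47.7 to 59.0 TPM in IFN-γ libraries. IFN-γ and IFN-γ + CX3CL1 overlapped for all 5.

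Adding CX3CL1 to IFN-γ moved no member past the test. In IFN-γ + CX3CL1, PML was at 53.1, 59.1 and 64.5 TPM, DAXX at 79.0, 102 and 169 TPM, and SP100 at 134, 153 and 169 TPM. SP110 was at 66.9, 61.8 and 113 TPM, and SP140 at 68.8, 65.5 and 111 TPM. By limma, 0 of 5 members were called against IFN-γ alone, where 0.345% of tested genes were called higher. An unadjusted p under 0.05 was found for 0 of 5, against 4.35% of tested genes in either direction, shares that 5 genes cannot tell apart. Likewise 0 of 5 had groups that did not overlap, against 8.54% of tested genes. The estimates were small and positive, from 0.13 for PML (SE 0.12, 95% interval -0.13 to 0.39) to 0.36 for SP140 (SE 0.24, 95% interval -0.16 to 0.88) on the log2 scale, with an adjusted p of 0.975 for each. The intervals of SP110 (-0.45 to 0.97) and DAXX (-0.34 to 0.94) leave room for differences of either sign.

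Library by library, each of the 5 members was higher in IFN-γ + CX3CL1 than in IFN-γ in all 3 same-numbered pairs, as were 25.0% of tested genes. The 5 members were read in the same 3 pairs of libraries, so they are not separate replicates. The 3 ratios were close to each other within a member, at 1.11, 1.08 and 1.09 for PML, 1.24, 1.15 and 1.17 for SP100, and 1.36, 1.28 and 1.22 for SP140. The ratios were 1.29, 1.18 and 1.14 for SP110 and 1.20, 1.22 and 1.28 for DAXX. These numbers pair the libraries of the 2 groups, since same-numbered libraries deviated together. With the replicate number as a block, limma still called 0 of 5, and SP140 came nearest with an unadjusted p of 0.0522 and an adjusted p of 0.615.

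Set against CX3CL1 alone, IFN-γ + CX3CL1 raised the 3 SP members. The test called 3 of 5 members higher, where it called 3.76% of tested genes higher, and 4 of 5 did not overlap between the groups, as did 14.0% of tested genes. The log2 fold change was 1.40 for SP110 (SE 0.33, limma adjusted p = 0.0285), 1.01 for SP140 (SE 0.24, limma adjusted p = 0.0299) and 0.66 for SP100 (SE 0.17, limma adjusted p = 0.0417). DAXX, at 1.11 (SE 0.30), missed the threshold with an adjusted p of 0.0521. With the replicate block DAXX passed (adjusted p = 0.00423), and 4 of 5 members and 8.71% of tested genes were then called higher. Same-numbered libraries of these groups deviated together. The block was fitted over all 12 libraries, however, so it does not rest on the pairing of these groups alone. The blocked adjusted p was 0.00131 for SP110, 0.00289 for SP140 and 0.0125 for SP100. PML differed by 0.27 (SE 0.12, 95% interval 0.01 to 0.53, limma adjusted p = 0.258), and its replicate 1 was at 0.994 times the CX3CL1 library of that number.

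Without the block, these 3 calls were near the threshold, and the fits that follow have no block. Without 1 library, SP100 was called in 1 of the 6 fits that left out a library of these groups, SP110 in 2 and SP140 in 1. The adjusted p of SP100 went up to 0.176, of SP110 to 0.132 and of SP140 to 0.134 without IFN-γ + CX3CL1 replicate 3. Without CX3CL1 replicate 1 it was 0.13 for SP100, 0.0573 for SP110 and 0.0687 for SP140, and leaving out replicate 1 of IFN-γ + CX3CL1 gave 0.0533, 0.0556 and 0.0504. Without CX3CL1 replicate 2 the calls on SP110 (0.079) and SP140 (0.0788) were lost, and without CX3CL1 replicate 3 those on SP100 (0.055) and SP140 (0.053). SP100 also lost its call without IFN-γ + CX3CL1 replicate 2 (0.0874), untreated replicate 3 (0.0562) or IFN-γ replicate 2 (0.058). DAXX passed instead without CX3CL1 replicate 3 (0.0324), IFN-γ replicate 1 (0.0428), IFN-γ replicate 3 (0.0349) or IFN-γ + CX3CL1 replicate 1 (0.0345). Without replicate 3 of all groups the calls on SP100 (0.357), SP110 (0.106) and SP140 (0.0855) were lost and DAXX was called (0.0423), and without replicate 3 of both groups with IFN-γ those on SP100 (0.206) and SP110 (0.0817) were lost and SP140 was called (0.0277). The estimates themselves stayed positive in each of these fits.

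IFN-γ + CX3CL1 had the highest group means of the members, though its libraries overlapped those of IFN-γ alone for all 5. Against no treatment, the test called 5 of 5 members higher, where it called 8.21% of tested genes higher. For 5 of 5 these 2 groups did not overlap, against 18.6% of tested genes. The mean of SP110 was 9.63 times the untreated mean (log2 fold change 3.11, SE 0.33, limma adjusted p = 2.89e-05), that of SP100 4.77 times (2.23, SE 0.17, limma adjusted p = 2.39e-06) and that of DAXX 4.54 times (2.07, SE 0.30, limma adjusted p = 0.000382). SP140 reached 3.58 times (1.77, SE 0.24, limma adjusted p = 0.000254). PML reached 1.67 times (0.72, SE 0.12, limma adjusted p = 0.00126), and without replicate 3 of all groups it was not called (0.63, adjusted p = 0.094).

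The effect of CX3CL1 was estimated lower in the presence of IFN-γ than in its absence for all 5 members, but the test of that difference called 0 of 5, as it called 0 of 11878 tested genes (0.00%), with 273 genes at an unadjusted p under 0.05. The difference between the CX3CL1 effects was -1.32 for SP100 on the log2 scale (SE 0.24, 95% interval -1.84 to -0.81, unadjusted p = 9.88e-05, limma adjusted p = 0.105). It was -1.45 for SP110 (SE 0.46, 95% interval -2.45 to -0.45, unadjusted p = 0.00796, limma adjusted p = 0.867). With the replicate number as a block, SP100 was called (limma adjusted p = 0.0189) and SP110 was not (0.0683). In that fit 0.413% of tested genes were called lower. In TPM, CX3CL1 alone took the SP100 mean from 31.9 to 96.5, and its addition to IFN-γ from 129 to 152. The intervals of PML (-0.69 to 0.05), DAXX (-1.56 to 0.25) and SP140 (-1.13 to 0.34) included 0. Of all tested genes, 0.522% had a lower difference than SP100 and 0.379% a lower one than SP110.

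Because the members rose by unequal factors, the make-up of the group shifted. The 5 levels summed to 124 ± 13.0 TPM without treatment (SD, n = 3), 267 ± 41.2 TPM with CX3CL1, 409 ± 105 TPM with IFN-γ and 490.3 ± 120 TPM with IFN-γ + CX3CL1. PML made up 28.4% of that sum without treatment and 13.2% with IFN-γ. SP110 made up 6.75% without treatment and 16.6% with IFN-γ. DAXX kept a similar share, with 20.7% and 23.0%. SP100 was 25.7% of the sum without treatment, 36.1% with CX3CL1 and 31.5% with IFN-γ. PML, first or second of the 5 in each untreated library, was last in 5 of the 6 libraries with IFN-γ. SP100 was first in 5 of those 6, and DAXX was first in IFN-γ + CX3CL1 replicate 3.

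Replicate 3 was higher than the others for SP110, SP140 and DAXX in the groups with IFN-γ, and less so for PML and SP100. Divided by the mean of replicates 1 and 2 of its group, the IFN-γ library of replicate 3 was at 1.90 for SP110, 1.78 for SP140 and 1.77 for DAXX, but at 1.20 for SP100 and 1.15 for PML. The IFN-γ + CX3CL1 library of that number gave 1.76, 1.65 and 1.87 for SP110, SP140 and DAXX. Without treatment these 3 ratios were 1.03, 1.01 and 0.994, so the untreated replicate 3 did not stand apart. With CX3CL1 the ratio was 1.53 for SP110, 1.68 for DAXX and 1.20 for SP140. The interferon-regulated factor IRF1 had a ratio of 2.12 in the IFN-γ library, and its part in the members' values was not tested. With replicate 3 of all groups left out, the log2 fold change with IFN-γ was 2.57 for SP110, 1.98 for SP100, 1.49 for DAXX and 1.14 for SP140, and each of these was called.

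**Figure D4:**
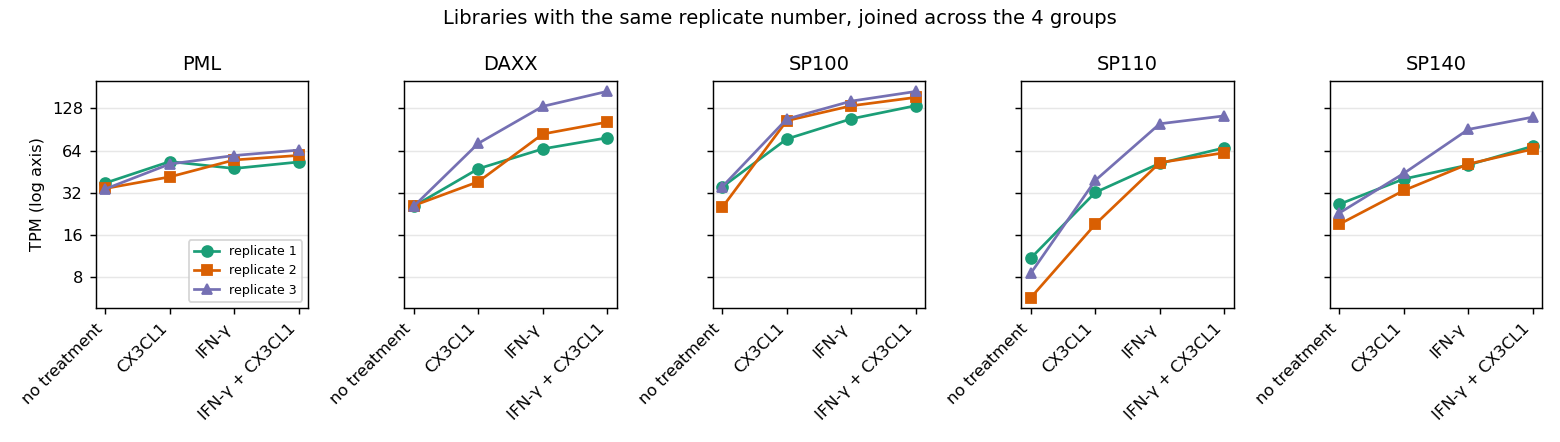
Level of each member in TPM (log axis) in the 4 groups, with lines joining the libraries that carry the same replicate number. The replicate 3 line runs with the others without treatment and lies above them in both groups with IFN-γ for SP110, SP140 and DAXX, and all 15 lines go up from IFN-γ to IFN-γ + CX3CL1.

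Parts of the SP transcripts are shared with other genes, which bears on how reads were assigned. Of the 100-base stretches of the longest coding transcript, 28.6% of SP140, 21.1% of SP110 and 5.17% of SP100 also occur in an annotated transcript of another gene, while 0 stretches of PML and DAXX do. How the authors counted reads that fit several genes is not given in the sources used here, so the levels of the SP members may include or lack reads of such relatives. Of 15 genes that share stretches, 3 are in the table. GM7609, which shares with SP100, had means of 10.6, 34.5, 60.8 and 64.3 TPM in untreated, CX3CL1, IFN-γ and IFN-γ + CX3CL1 cells, and it was called higher with CX3CL1 (log2 fold change 1.58, limma adjusted p = 0.00325) and with IFN-γ (2.40, limma adjusted p = 3.74e-05). C130026I21RIK, which shares with SP110 and SP140, was at 3.27 TPM without treatment and 16.8 TPM with IFN-γ (log2 fold change 2.05, limma adjusted p = 0.000929), and it was not called with CX3CL1 (0.75, limma adjusted p = 0.502). A530032D15RIK, which shares with SP140, was at 0.552 and 3.22 TPM (log2 fold change 1.41, limma adjusted p = 0.00247), and it was not called with CX3CL1 (0.09, limma adjusted p = 1.0). These relatives were higher with IFN-γ like the members they resemble, and the part of shared reads in either was not tested.

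The calls among genes that work with PML bodies are set beside the shares over all tested genes. These lists are small and were not tested against those shares. Of 18 tested genes of the SUMO pathway, which carry out the modification of PML and SP100 (SUMO proteins, the activating and conjugating enzymes, PIAS ligases, SENP proteases and the SUMO-directed ubiquitin ligases RNF4 and RNF111), 0 were called in either direction in any comparison. Their log2 fold changes with IFN-γ ran from -0.31 to 0.27 with a median of -0.03, and with CX3CL1 from -0.29 to 0.17 with a median of -0.02. Of 14 partners of DAXX in H3.3 deposition and heterochromatin, among them ATRX, HIRA and TRIM28, 0 were called in any comparison, with log2 fold changes from -0.36 to 0.23 with IFN-γ. For comparison, 1.95% of all tested genes were called in either direction with CX3CL1, 7.85% with IFN-γ, 11.9% with IFN-γ + CX3CL1 against no treatment, 4.70% against CX3CL1 and 0.362% against IFN-γ. A list of 4 SAND relatives outside the SP family gave 3 tested genes and 0 calls, and AIRE, the thymic regulator, was listed at 0 in all 12 libraries.

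Of 16 other proteins that reside in or pass through PML bodies, 1 was called with IFN-γ, against 7.85% of all tested genes in either direction. With IFN-γ + CX3CL1 against no treatment 2 were called, against 11.9% of all tested genes. A list of 16 genes cannot be told apart from these shares. ISG20, an interferon-induced RNA exonuclease, was at 17.8 ± 1.62 TPM without treatment and 80.9 ± 11.6 TPM with IFN-γ (SD, n = 3 each), a log2 fold change of 2.11 (SE 0.19, limma adjusted p = 1.31e-05). With CX3CL1 alone ISG20 was at 30.9 ± 9.71 TPM (SD, n = 3) and was not called (log2 fold change 0.72, limma adjusted p = 0.0946). It was higher in IFN-γ + CX3CL1 than in CX3CL1 (1.41, limma adjusted p = 0.000952), and it differed from IFN-γ alone by 0.02. HIPK1, a nuclear protein kinase, was called only in IFN-γ + CX3CL1 against no treatment, from 46.8 ± 5.31 to 74.5 ± 6.08 TPM (SD, n = 3 each, log2 fold change 0.66, limma adjusted p = 0.00115). TRP53, the p53 gene, had an estimate of 0.33 with each single treatment and was not called (limma adjusted p = 0.188 with CX3CL1 and 0.0661 with IFN-γ).

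**Figure D5:**
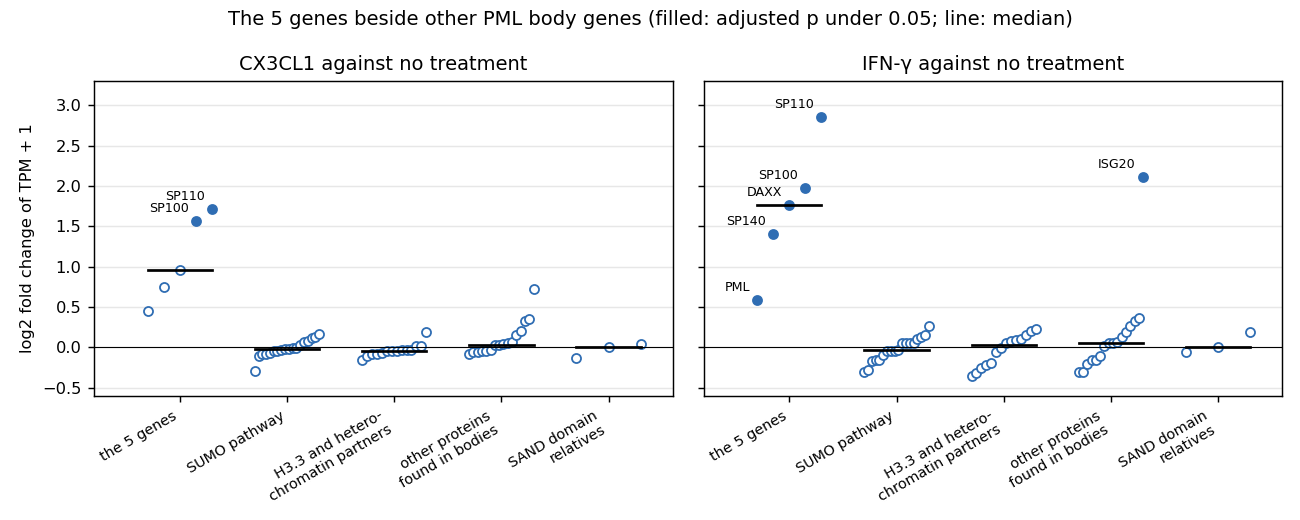
Log2 fold change with CX3CL1 and with IFN-γ of the 5 members and of the genes of 4 related lists, with 1 point per gene, filled where called by limma, and a line at each list's median. The SUMO pathway and H3.3 lists lie between -0.36 and 0.27 with IFN-γ, while the members lie between 0.59 and 2.85.

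The genes whose log2(TPM + 1) followed each member most closely over the 12 libraries, by Pearson's r across all tested genes, differed between members. For PML these were B4GALT5 (0.984), HELZ2 (0.970) and GADD45B (0.967). For SP100 they were the RNA sensor DDX58 (0.994), RTP4 (0.992) and OAS3 (0.992). For SP110 they were PARP14 (0.994), TRIM21 (0.993) and STAT2 (0.991). For SP140 they were TRIM26 (0.989), RNF19B (0.989) and IFIT2 (0.987), and for DAXX they were IRF5 (0.989), IFI205 (0.983) and IFI47 (0.983). Between members, r ran from 0.906 for SP100 with SP140 to 0.980 for SP110 with SP140. The 12 libraries fall into treatment groups, so these values describe shared group differences and carry no test.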

How the data were processed

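RNA-seq of CT26 cells covered 12 libraries, 3 in each of 4 groups taken from the sample labels; treatment doses and time are from the study's methods. The authors aligned stranded mRNA reads to mm10 with STAR 2.7.3a, quantified genes and deposited a table of TPM values. How the TPM were made, the annotation and the handling of reads that fit several genes are not given in the sources used here. DESeq2 1.22.1 is named in the submitters' processing notes; it was not run here, since TPM are not counts.

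Of 23636 symbols, 6747 were at 0 in all libraries. The 11878 genes that averaged 0.2 TPM or more were fitted as log2(TPM + 1) on all libraries with limma 3.58.1 in R 4.3.3 (lmFit, eBayes with trend, two-sided), and Benjamini-Hochberg adjustment ran over all of them with a threshold of 0.05. Fold changes are on that log2 scale, which understates changes of low genes. An exact permutation test of 3 against 3 cannot go below p = 0.1 and was not used. The scripts were tested on simulated data.

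The members were taken by symbol with no threshold on a value, but they and the gene lists were chosen with earlier results of these data known. Named genes are the members, up to 6 called genes per list and comparison, the 3 genes most like each member, transcripts that share sequence, and IRF1 and NFKBIA as treatment checks; another gene of this rule is not reported here. Same-numbered libraries of the IFN-γ and IFN-γ + CX3CL1 groups deviated together (correlations of deviations from group means 0.630 to 0.649), as did those of no treatment and IFN-γ (0.220 to 0.460) and of CX3CL1 and IFN-γ + CX3CL1 (0.351 to 0.428). The replicate number was treated as pairing there, and the labels give only the number. The block itself was fitted over all 12 libraries. Alternatives changed the pseudocount, filter, scaling, libraries fitted, trend, block and replicates. Positions are from GENCODE vM21 and promoters from RefSeq. Protein sequences were not used here.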

Additional observations from a re-analysis of the deposited data

How the results depend on the processing

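The counts of members called held at 5 for IFN-γ and for IFN-γ + CX3CL1 against no treatment, and at 0 for IFN-γ + CX3CL1 against IFN-γ, in each fit with another pseudocount, filter, scaling, trend, set of libraries or block, and without any 1 library. For CX3CL1 against no treatment the count was 2, and it was 1 with no filter and 1 to 3 when 1 library was left out. For IFN-γ + CX3CL1 against CX3CL1 the count was 3, and it was 0 with no filter, 1 with median-ratio scaling and 0 to 4 when 1 library was left out. Alternatives chosen after seeing the data left out replicate 3. Without replicate 3 of both groups with IFN-γ the counts of these comparisons were 4 and 1, and without replicate 3 of all groups 1 and 1 (against CX3CL1, SP140 was called in the former fit and DAXX in the latter); the count for IFN-γ against no treatment was 4 in both, and that for IFN-γ + CX3CL1 against no treatment was 4 in the second. The fits without replicate 3 held fewer libraries, and the fit with no filter tested more genes. Why any of these counts moved was not tested. Without IFN-γ + CX3CL1 replicate 3, the estimates of SP110 and DAXX against IFN-γ turned to -0.01 each; with 1 library left out they ran from -0.01 to 0.56 for SP110 and from -0.01 to 0.57 for DAXX. Of 655 member fold changes refitted, 605 kept direction and side of the threshold, 36 lost a call, 12 gained one and 2 changed sign. No scaling moved the median of all genes by more than 0.0873 (log2). Read depth is unknown, and no interval for counting error can be given.

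For no treatment and CX3CL1 the correlations by replicate number were mixed. Each of the 2 groups was treated as paired with a group given IFN-γ, which links them indirectly. Their same-numbered correlations were 0.387, 0.005 and 0.301, and the untreated replicate 2 correlated better with another number (0.253). For no treatment and IFN-γ + CX3CL1 the same-numbered correlations were 0.312, 0.447 and 0.032. Here the untreated replicate 3 correlated better with another number (0.12). With the replicate block, 4 members were called for CX3CL1 against no treatment, where 2.92% of tested genes were called higher, with DAXX (adjusted p = 0.0192) and SP140 (0.0292) added. For the difference between the CX3CL1 effects the block gave 1 call, SP100 (-1.32, adjusted p = 0.0189), where 0.413% of tested genes were called lower. Besides these and DAXX in IFN-γ + CX3CL1 against CX3CL1, the block changed no member's call.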
